A study of Mus musculus with 4 samples.

Results

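Histone and DNA modifying enzymes write, remove or reverse the chemical marks on chromatin, and their transcripts were compared between mouse primary T cells with and without PTC. Members were the protein-coding genes whose symbol begins with Kdm, Kmt, Setd, Hdac, Sirt, Dnmt, Tet, Prmt, Ehmt, Suv39h, Nsd or Kat followed by a digit, a rule that uses no measured value. It found 83 of the 54532 genes in the deposited table, and a further 9 symbols that match were pseudogenes or antisense transcripts and stayed out. By class there were 23 lysine methyltransferases, 18 lysine demethylases, 8 arginine methyltransferases, 8 lysine acetyltransferases, 11 zinc-dependent deacetylases, 7 sirtuins, 5 DNA methyltransferases and 3 TET dioxygenases.

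The libraries were 2 of cells treated with PTC and 2 of cells with the treatment label Control, all labelled 12 h. Cells of both groups were grown with serum, the T cell growth cytokine IL2 and CD3/28 beads, a stand-in for antigen that triggers the T cell receptor, so both groups were stimulated T cells. The labels do not expand PTC and state no dose, strain, age or sex, and the series title concerns the Polycomb protein BMI1. The labels do not say whether the 2 libraries of a group are separate cultures or mice. Every p-value therefore reflects library-to-library spread, which may be technical.

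Methyltransferases place methyl groups on lysines or arginines of histones, and demethylases take them off. Acetyltransferases and deacetylases do the same for acetyl groups, whose presence goes with open chromatin. DNA methyltransferases methylate cytosine, and TET enzymes oxidise that mark. In T cells these enzymes help fix which effector and memory genes stay silent or can be switched on after stimulation. Their co-substrates come from central metabolism: S-adenosylmethionine for methylation, acetyl-CoA for acetylation, NAD for sirtuins and 2-oxoglutarate for most demethylases and the TET enzymes.

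Library totals ran from 15458818 to 16639911 counts, and the members took 0.615% to 0.616% of the counts in the PTC libraries and 0.640% to 0.678% in the Control libraries. The T cell label was met: all 11 T cell markers were present, with a summed level of 4443 and 4548 CPM in PTC libraries and 4207 and 4109 CPM in Control libraries, where CPM is the count per 1e+06 counts after scaling by the trimmed mean of M values (TMM). All 11 T cell markers had positive fold changes with PTC (median 0.12 on the log2 scale), and 0 were called. An unadjusted p under 0.05 in edgeR was reached by 4 of them (36.4%), all higher, against 12.9% of all genes tested. Markers of other blood cells were present too. Their sums were 1503 and 1328 CPM with PTC against 1064 and 1071 CPM in Control for 10 monocyte, macrophage and neutrophil genes, nearly all of it Lyz2 (1358 and 1176 CPM with PTC, 865 and 887 CPM in Control). Of these 10, Lyz2 and S100a8 passed the test higher and Mpo, Elane and Cd14 lower, at 30.7%, 19.5% and 57.5% of Control. That is 50% of these genes, against 1.35% of all genes tested. At an unadjusted p under 0.05 in edgeR there were 80% of them, against 12.9% of all genes tested. For 7 B cell genes the sums were 557 and 566 CPM with PTC against 529 and 522 CPM in Control. For 5 NK cell genes the sums were 567 and 571 CPM with PTC against 560 and 540 CPM in Control. These sums were mostly Ighm and Nkg7, which were not called, while Igkc (log2 fold change 0.77) and Eomes (0.59) passed higher and Klrd1 (72.7% of Control) lower. The 5 erythroid genes summed to 2.86 and 3.68 CPM with PTC against 9.52 and 7.79 CPM in Control, with Alas2 at 0 in every library and Hbb-bt called lower (19.3% of Control), and the 4 fibroblast genes to 2.86 and 3.01 CPM with PTC against 3.32 and 4.78 CPM in Control. Of the genes tested, 14.3% of the B cell, 50% of the NK cell, 25% of the erythroid and 0% of the fibroblast genes were called. The part of all these other cell types in the enzyme results was not tested. Y-linked transcripts were found in every library, among them those of the member Kdm5d, a histone demethylase gene on the Y chromosome, at 19.9 and 19.5 CPM with PTC and 17.3 and 21.5 CPM in Control, while Xist had at most 2 counts.

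Of the 83 members, 79 were expressed enough to test. Hdac8 alone, which was lower with PTC, passed an adjusted p of 0.05 in edgeR (quasi-likelihood test, p-values adjusted by Benjamini-Hochberg over all 13884 genes tested). That is 1.27% of the members, and 1.35% of all genes tested were called (0.763% lower and 0.591% higher with PTC), so the share of enzyme genes called was near the background. The same held at an unadjusted p under 0.05, which 10 members reached (12.7%), 9 lower and 1 higher, against 12.9% of all genes tested (6.89% lower and 6.01% higher). No member was called by DESeq2, limma-voom or RLE scaling, which called 1.49%, 1.41% and 1.28% of all genes tested. Fold changes of enzyme transcripts were small: the median absolute log2 fold change, always PTC over Control, was 0.094 among the members and 0.13 among all genes tested. For 72 of the 79 members (91.1%) the 95% interval of the fold change lay within 1.5-fold in both directions, against 65.5% of all genes tested. The members also had a higher median level, 58.3 CPM against 20.7 CPM for all genes tested. Whether that level accounts for the smaller fold changes and narrower intervals was not tested. In this bulk RNA, fewer cells of a type and less RNA per cell cannot be told apart.

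The members leaned towards lower levels with PTC. The log2 fold change was negative for 51 of 79 (64.6%), against 50.7% of all genes tested, with a median of -0.047 against -0.003. Both PTC libraries lay below both Control libraries for 26 members (32.9%), where 22.2% of all genes tested did, and above both for 9 (11.4%), where 21.3% did. With scaling by library totals alone, 77.2% of members and 59.7% of all genes had a negative fold change. Control 2 held more of these transcripts than Control 1, with 47 of 79 members higher in it and a median log2 ratio of 0.07. PTC 2 and PTC 1 differed by a median of -0.0088. Without Control 2, 46 of the 81 members then tested were negative (56.8%).

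**Figure D1:**
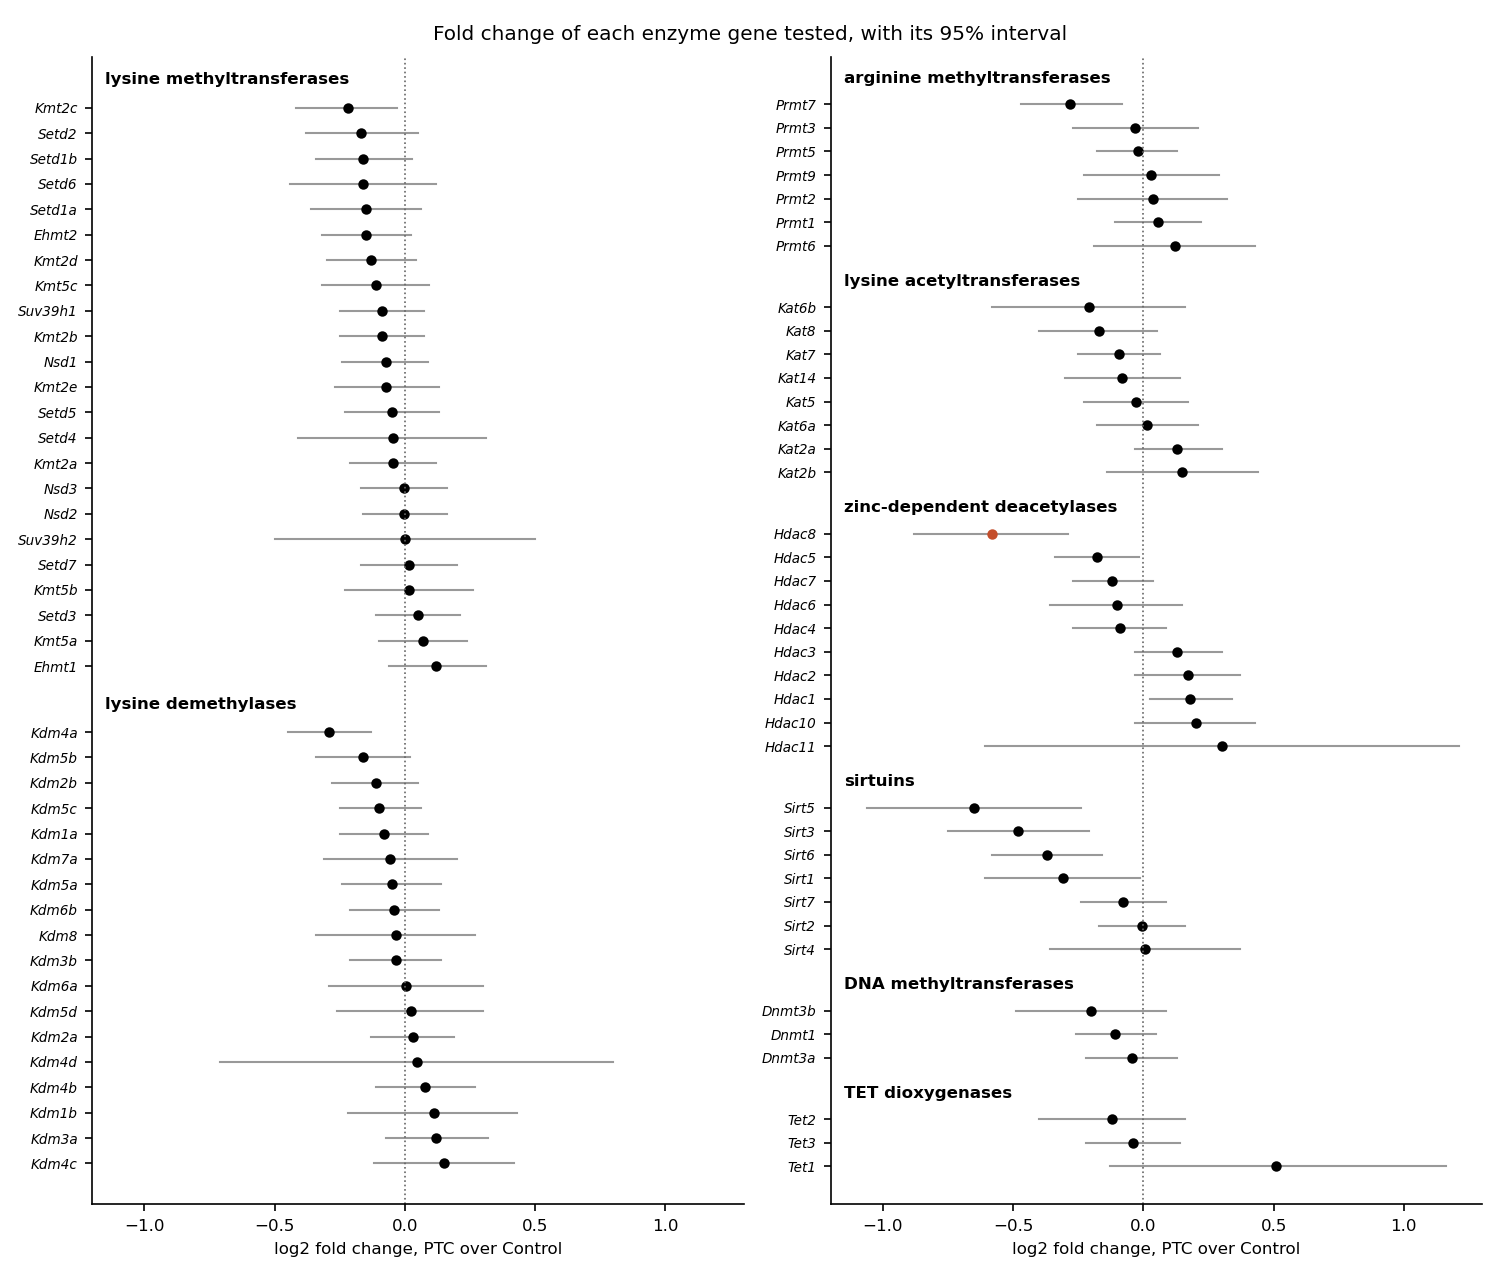
Log2 fold change (PTC over Control) of the 79 enzyme genes tested, by class and sorted within it. Points are fitted values and lines their 95% intervals; Hdac8, at -0.58, is the single gene past an adjusted p of 0.05 (coloured), and Sirt5, at -0.65, lies lowest.

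Zinc-dependent deacetylases remove acetyl groups from histones and other proteins. Hdac8 (ENSMUSG00000067567, chromosome X, 102284639 to 102505359, minus strand, GRCm38) encodes the class I enzyme known for deacetylating the cohesin subunit SMC3. It had 12.1 and 13.5 CPM in PTC libraries, against 20.4 and 17.9 CPM in Control libraries. Every PTC value lay below every Control value, and none of its exon bases lies under another annotated gene. The means were 12.8 ± 0.988 CPM with PTC and 19.2 ± 1.79 CPM in Control (SD, n = 2 each). Hdac8 fell to 66.8% of its Control level, or -0.58 ± 0.14 on the log2 scale (± standard error, here and for other log2 fold changes; edgeR adjusted p = 0.0453). The fold change stayed between -0.67 and -0.47 in every alternative setting, but the call sat at the threshold. It held with library totals alone, without a filter on low counts and without Control 2, and also with upper-quartile scaling, a filter of 1 CPM and the replicate block (where 1.62%, 1.45% and 1.71% of all genes were called). It was lost without Control 1 (adjusted p = 0.128), without PTC 1 (0.404) and without PTC 2 (0.0632), where 2.93%, 0.525% and 1.11% of all genes were called, and by RLE scaling (0.0507), limma-voom (0.0506) and DESeq2 (0.0925).

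The other class I deacetylases stood the other way, without a call. Hdac1, which with Hdac2 forms the catalytic core of the Sin3, NuRD and CoREST complexes, had 252 and 246 CPM with PTC against 225 and 215 CPM in Control (log2 fold change 0.18, edgeR adjusted p = 0.297). Hdac2 had 49.4 and 45.9 CPM with PTC against 41.8 and 43.1 CPM in Control (log2 fold change 0.17, adjusted p = 0.488). For Hdac3, another class I histone deacetylase, the values were 95 and 95.5 CPM with PTC and 90.2 and 83.6 CPM in Control (log2 fold change 0.13, adjusted p = 0.504). In all of these the PTC libraries lay above the Control libraries, as they did for 21.3% of all genes tested. The Hdac1 count is uncertain, because 58.7% of the 50-base words of its longest transcript also occur in transcripts of other genes, mostly its copy Gm10093.

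The class IIa deacetylases that could be tested, which shuttle between nucleus and cytoplasm on signals such as T cell receptor engagement, had negative fold changes. Hdac7, a class IIa gene known for its role in thymocytes, had 412 and 430 CPM with PTC against 459 and 455 CPM in Control (log2 fold change -0.12, edgeR adjusted p = 0.543). Hdac5 had 92.4 and 95.6 CPM with PTC against 109 and 104 CPM in Control (log2 fold change -0.18, adjusted p = 0.326). Hdac4 had 66.9 and 72.9 CPM with PTC against 71.8 and 77.1 CPM in Control, where the groups overlapped (log2 fold change -0.091). Hdac10, known as a polyamine deacetylase, stood at 29.9 and 30.1 CPM with PTC and 27.2 and 25 CPM in Control (log2 fold change 0.20, adjusted p = 0.471). Over the 10 deacetylase genes tested, 5 fold changes were positive and 5 negative, with a median of 0.021 (-0.021 with library totals alone), and the summed level was 1032 and 1054 CPM with PTC against 1069 and 1044 CPM in Control. Hdac9, a class IIa gene, had 8 and 6 counts with PTC and 11 and 8 counts in Control and was not tested.

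**Figure D2:**
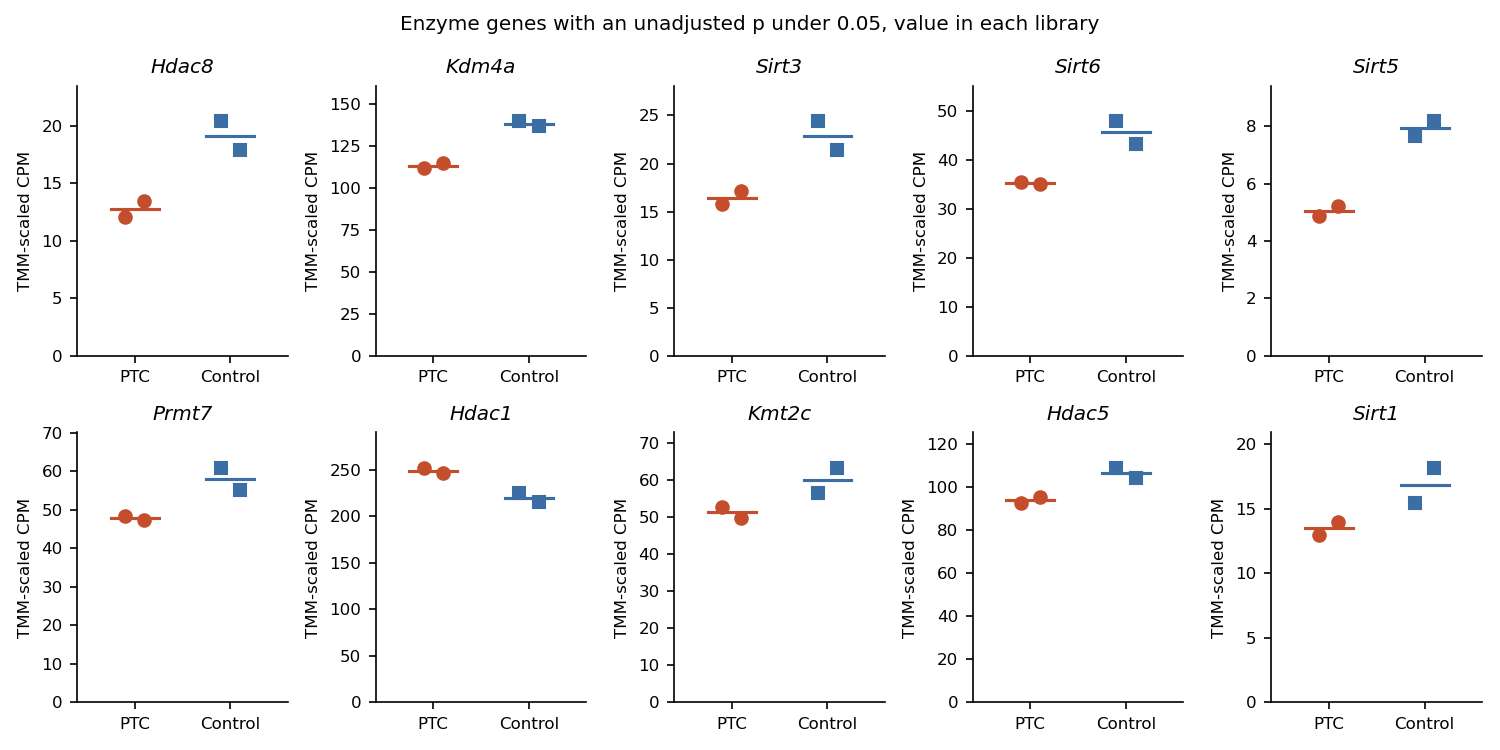
TMM-scaled CPM in each of the 4 libraries for the 10 enzyme genes with an unadjusted p under 0.05, PTC left of Control; points are libraries, short lines group means, and each axis starts at 0. In every panel the groups do not overlap, with PTC lower in 9 genes and higher in Hdac1 (252 and 246 CPM with PTC against 225 and 215 CPM in Control). The genes were chosen by that p on these same libraries, so the separation follows largely from the choice. Among all genes tested, PTC lies below both Control libraries in 22.2% and above both in 21.3%.

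Sirtuins, which use NAD to remove acetyl and other acyl groups, had the lowest class median, -0.31 on the log2 scale, with 6 of 7 fold changes negative. None passed the edgeR test over all genes, and 4 of the 7 had an unadjusted p under 0.05 (4 by limma-voom and 3 by DESeq2), all lower, where edgeR had 12.9% of all genes at that level (6.89% lower). Sirt5 (chromosome 13, 43365496 to 43395203, plus strand), a mitochondrial enzyme that removes succinyl and malonyl groups, had 4.88 and 5.21 CPM with PTC, against 7.67 and 8.17 CPM in Control. Its level was 63.8% of Control, or -0.65 ± 0.19 in log2 (edgeR adjusted p = 0.117). Its counts were low, from 75 to 130 per library, and 36.9% of its 50-base words occur in other transcripts.

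Sirt3 (chromosome 7, 140863666 to 140882309, minus strand), the main mitochondrial deacetylase, had 15.8 and 17.1 CPM with PTC, against 24.4 and 21.4 CPM in Control. That is 71.7% of Control (log2 fold change -0.48 ± 0.13, edgeR adjusted p = 0.077). Exons of Psmd13 and Ric8a on the opposite strand cover 12.7% of its exon bases, and the strand setting of the counting is not given in the sources used here. Psmd13 itself had 150 and 165 CPM with PTC against 155 and 144 CPM in Control, and Ric8a 99.6 and 96.9 CPM with PTC against 108 and 106 CPM in Control.

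Sirt6 (chromosome 10, 81621785 to 81627797, minus strand), a chromatin deacetylase that also acts in DNA repair, had 35.6 and 35.2 CPM with PTC, against 48 and 43.4 CPM in Control. This was 77.5% of Control (log2 fold change -0.37 ± 0.10, edgeR adjusted p = 0.0804). Sirt3 and Sirt6 passed the threshold without Control 2 (adjusted p = 0.0358 and 0.0395), without a filter on low counts (0.0321 and 0.0424) and with library totals alone (0.0408 and 0.04), settings that called 2.33%, 1.88% and 1.99% of all genes. Without PTC 1 their adjusted p reached 0.552 and 0.464. Sirt1, the nuclear deacetylase of histones and transcription factors, had 13 and 14 CPM with PTC against 15.5 and 18.2 CPM in Control (log2 fold change -0.31, adjusted p = 0.361).

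The other sirtuins had log2 fold changes no larger in size than that of Sirt7. Sirt7, a nucleolar enzyme, had 131 and 126 CPM with PTC against 142 and 129 CPM in Control (log2 fold change -0.079). Sirt2, largely cytoplasmic, had 124 and 125 CPM with PTC against 132 and 118 CPM in Control, and Sirt4, another mitochondrial member, 8.78 and 8.47 CPM with PTC against 9.2 and 7.98 CPM in Control. For Sirt2 the 95% interval of the log2 fold change ran from -0.17 to 0.16, and for Sirt4 from -0.36 to 0.37. The class median stayed between -0.36 and -0.19 under every alternative, with the weakest value without Control 2. All 7 fold changes were negative there and with library totals alone. Only 4 of 7 were negative without Control 1, and 5 of 7 with upper-quartile scaling. In the same libraries the monocyte, macrophage and neutrophil markers did not move together: the sum was higher with PTC through Lyz2 (1358 and 1176 CPM with PTC, 865 and 887 CPM in Control), while Mpo had 11.4 and 19.4 CPM with PTC against 53.7 and 47.5 CPM in Control. Whether they contributed was not tested.

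Because Hdac8, Kdm4a, Sirt3, Sirt6 and Sirt5 had the smallest p of all members, all lower with PTC, their promoter windows were read from RefSeq on GRCm38.p6. Each window holds 300 bases, most of them before the RefSeq start site, 5′ to 3′ on the gene's strand. The windows are chrX:102505109-102505408 (minus strand) for Hdac8, chr4:118179994-118180293 (minus) for Kdm4a, chr7:140882260-140882559 (minus) for Sirt3, chr10:81627517-81627816 (minus) for Sirt6 and chr13:43365285-43365584 (plus) for Sirt5. Capitals mark matches on either strand to any of the following motifs, which may overlap. The E-box bound by helix-loop-helix factors was searched as CACGTG. The box bound by the factor NF-Y was searched as CCAAT. The GC box bound by Sp factors was searched as GGGCGG, and the TATA box of core promoters as TATAAA. The core of ETS factor sites was searched as CCGGAAG, and the response element of CHOP and ATF4 as TGATGCAAT. The palindrome of the factor NRF1 was searched as well, and it reads GCGCA followed by the reverse complement of those letters.
Hdac8: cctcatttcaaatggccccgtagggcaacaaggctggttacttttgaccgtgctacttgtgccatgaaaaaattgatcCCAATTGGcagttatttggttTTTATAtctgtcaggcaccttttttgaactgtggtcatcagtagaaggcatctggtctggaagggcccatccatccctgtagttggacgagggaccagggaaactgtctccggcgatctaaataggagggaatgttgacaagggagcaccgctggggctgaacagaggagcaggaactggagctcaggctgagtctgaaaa
Kdm4a: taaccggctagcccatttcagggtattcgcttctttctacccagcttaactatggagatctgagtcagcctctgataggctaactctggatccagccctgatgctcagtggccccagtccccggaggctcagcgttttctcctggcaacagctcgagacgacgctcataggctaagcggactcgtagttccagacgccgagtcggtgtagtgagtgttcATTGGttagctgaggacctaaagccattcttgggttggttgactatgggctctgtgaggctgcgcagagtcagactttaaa
Sirt3: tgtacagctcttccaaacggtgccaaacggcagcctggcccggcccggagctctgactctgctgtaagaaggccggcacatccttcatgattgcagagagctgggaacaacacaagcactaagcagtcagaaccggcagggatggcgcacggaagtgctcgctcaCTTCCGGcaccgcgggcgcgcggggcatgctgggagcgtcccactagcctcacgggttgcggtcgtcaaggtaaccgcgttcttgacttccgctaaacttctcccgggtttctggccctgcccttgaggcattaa
Sirt6: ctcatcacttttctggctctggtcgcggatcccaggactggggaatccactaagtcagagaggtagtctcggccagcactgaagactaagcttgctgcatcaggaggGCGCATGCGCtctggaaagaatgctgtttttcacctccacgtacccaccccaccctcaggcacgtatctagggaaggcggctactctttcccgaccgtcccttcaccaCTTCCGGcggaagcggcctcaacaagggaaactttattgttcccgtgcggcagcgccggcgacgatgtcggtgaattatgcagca
Sirt5: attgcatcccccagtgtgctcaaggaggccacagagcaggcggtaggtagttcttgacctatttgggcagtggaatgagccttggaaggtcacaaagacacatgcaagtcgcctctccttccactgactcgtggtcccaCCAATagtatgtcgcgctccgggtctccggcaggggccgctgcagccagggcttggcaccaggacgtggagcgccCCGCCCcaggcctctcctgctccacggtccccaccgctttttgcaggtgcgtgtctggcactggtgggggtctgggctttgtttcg

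The windows shared no single motif. In the shares below, member windows are 1 a gene, the one nearest the deposited gene start. All windows keep every distinct window of every gene in the reference, so the shares are not like for like. Sirt3 and Sirt6 each held an ETS core, found in 8.86% of all 32851 promoter windows and in 17.9% of the 67 member windows in the table. Sirt6 also held the NRF1 palindrome, which 0.971% of all windows and 1.49% of member windows have. Hdac8 (in 2 overlapping matches), Kdm4a and Sirt5 held a CCAAT box, present in 37.4% of all windows and 41.8% of member windows. Sirt5 alone of these held a GC box (35.7% of all windows, 64.2% of member windows). Only Hdac8 held the letters searched as the TATA box (13.6% of all windows, 5.97% of member windows). That match was on the strand opposite to the gene and well before the start site, and the search required neither strand nor position. None held an E-box (7.15% of all windows, 10.4% of member windows) or the response element of CHOP and ATF4 (0.192% of all windows, 0 of the member windows), which says only that these letters are not in these windows. The Hdac8 window had 6 CpG dinucleotides, against a median of 20 in the member windows and 7 in all windows, and its start site lies 201 bases from the start of the deposited gene. For Sirt6 that distance was 231 bases and for Sirt5 39 bases, and for Kdm4a and Sirt3 it was 0.

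Lysine demethylases were spread on both sides of 0, with 10 of 18 negative, a median of -0.036 and none past the edgeR threshold. Kdm4a (chromosome 4, 118136957 to 118180043, minus strand), a 2-oxoglutarate-dependent enzyme that removes methyl marks from histone H3, had 112 and 115 CPM with PTC, against 140 and 137 CPM in Control. Its replicates were close together and the groups were well apart. It stood at 81.8% of Control, or -0.29 ± 0.075 in log2 (edgeR adjusted p = 0.0631). It passed the threshold without Control 2 (adjusted p = 0.0328), without a filter on low counts (0.0299) and with library totals alone (0.022), its adjusted p reached 0.679 without PTC 1, and its fold change stayed between -0.33 and -0.27 in every setting. Kdm1a, the flavin-dependent demethylase of the CoREST complex, had 85.3 and 80 CPM with PTC against 84.5 and 90.3 CPM in Control. Kdm6b, which removes the methyl mark that Polycomb repressive complex PRC2 places, had 79.7 and 87.9 CPM with PTC against 85.3 and 87.4 CPM in Control. The groups overlapped for both, with log2 fold changes of -0.081 and -0.043.

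Among lysine methyltransferases, 17 of 23 fold changes were negative with a median of -0.071, and none passed the edgeR test. The lowest was Kmt2c, which encodes an enhancer methyltransferase of the COMPASS-like complexes, at 52.9 and 49.9 CPM with PTC against 56.6 and 63.4 CPM in Control (log2 fold change -0.22, adjusted p = 0.300). Its paralog Kmt2d had 179 and 163 CPM with PTC against 175 and 200 CPM in Control (-0.13). Setd2, which methylates histone H3 along transcribed genes, had 41.9 and 39.6 CPM with PTC against 42.1 and 49.4 CPM in Control (-0.17). In all of these Control 2 was the highest library. It exceeded Control 1 for 19 of the 23 methyltransferase genes, with a median log2 ratio of 0.13, larger than the class median between the groups. Without Control 2, 11 of 23 were negative and the median was 0.011, so the negative median of this class was not kept without that library.

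The difference between the Control libraries also went with gene length, and their ratio cannot tell which of them stood apart. Across the 79 members, Spearman's correlation of gene length with the log2 ratio of Control 2 over Control 1 was 0.50, and across 13879 tested genes with counts in every library it was 0.23. With the PTC over Control fold change the correlation of length was -0.22 across the members and -0.08 across all those genes, and with PTC 2 over PTC 1 it was -0.19 across the members and -0.08 across all those genes. The between-group value was thus close in size to that of PTC 2 over PTC 1 and smaller than that of Control 2 over Control 1. These are descriptions across genes, which share their libraries and are not replicates, and the ratios share libraries. The median length was 10444 bases for the methyltransferase genes and 3964 bases for all genes tested.

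Among other lysine methyltransferase genes, Kmt2a, the MLL gene, had 141 and 131 CPM with PTC against 135 and 146 CPM in Control (log2 fold change -0.047). Nsd2, which dimethylates histone H3, had 192 and 198 CPM with PTC against 186 and 205 CPM in Control, and its interval ran from -0.16 to 0.16. Suv39h1, the heterochromatin methyltransferase, had 97.2 and 95 CPM with PTC against 99.7 and 105 CPM in Control (-0.088). Ehmt2, which with Ehmt1 dimethylates histone H3 in silent genes, had 291 and 324 CPM with PTC against 358 and 323 CPM in Control (-0.15, edgeR adjusted p = 0.472). On the positive side were 6 of the 23, Ehmt1 with the largest value at 62 and 59.6 CPM with PTC against 53.7 and 58 CPM in Control (0.12, adjusted p = 0.601), and then Kmt5a, at 90.9 and 94 CPM with PTC against 84.1 and 92 CPM in Control (0.07). The count of Setd1a is uncertain, since 51.8% of its exon bases lie under other genes annotated on the same strand.

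**Figure D3:**
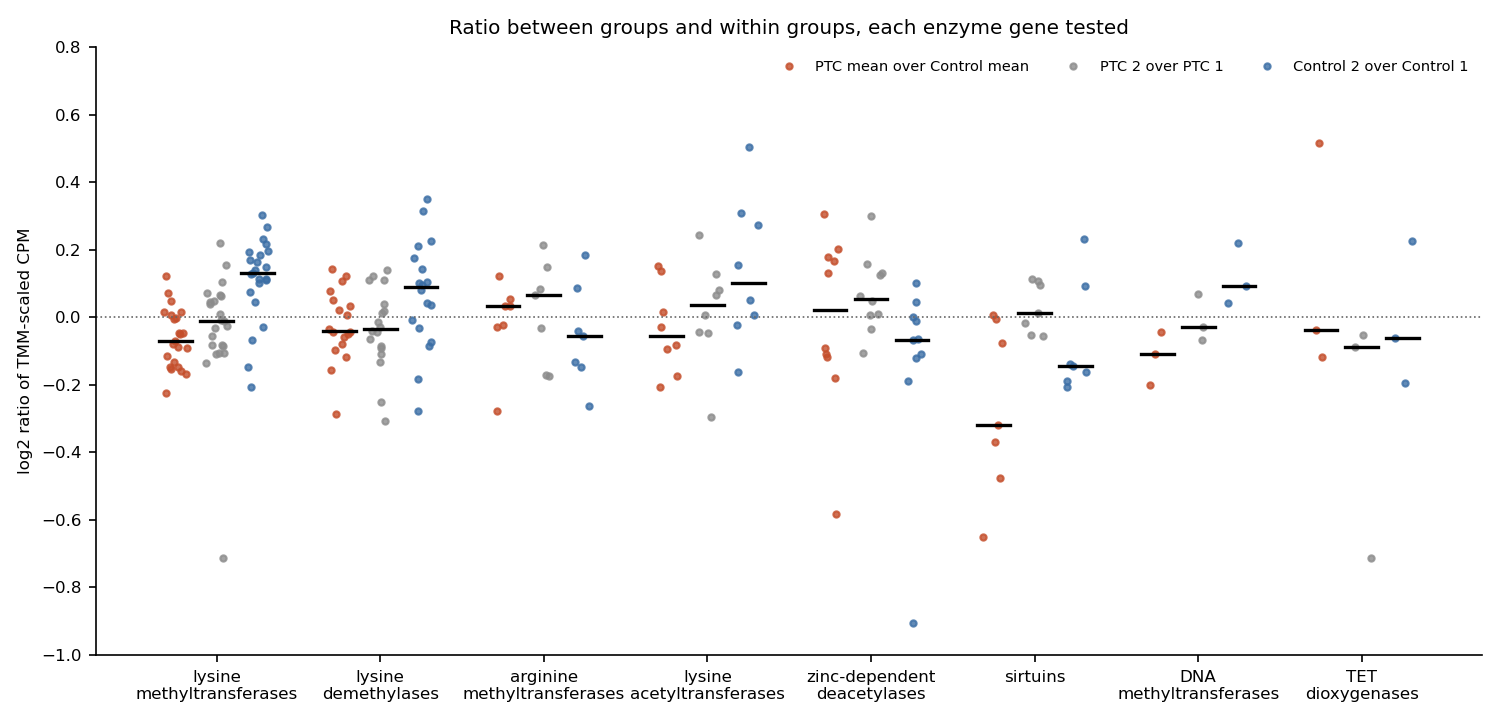
Log2 ratio of TMM-scaled CPM for each enzyme gene tested, by class: PTC mean over Control mean, PTC 2 over PTC 1, and Control 2 over Control 1, with black lines at the medians. The between-group median of the sirtuins (fitted value -0.31) is lower than their PTC 2 over PTC 1 median of 0.019 and their Control 2 over Control 1 median of -0.15, while that of the lysine methyltransferases (fitted value -0.071) is smaller in size than their Control 2 over Control 1 median of 0.13.

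Arginine methyltransferases stood at 471 and 486 CPM in sum with PTC and 495 and 469 CPM in Control, with 4 of 7 tested genes positive and a median of 0.031, which was -0.01 with library totals alone. Prmt7, which adds single methyl groups to arginine, had 48.4 and 47.3 CPM with PTC, against 60.9 and 55 CPM in Control. It was lower in both PTC libraries, at -0.28 ± 0.092 in log2 (edgeR adjusted p = 0.173). Prmt1, the main asymmetric dimethylating enzyme, had 185 and 196 CPM with PTC against 192 and 175 CPM in Control. Prmt5, the main symmetric dimethylating enzyme, had 153 and 160 CPM with PTC against 162 and 156 CPM in Control. Their groups overlapped, and their intervals ran from -0.11 to 0.22 and from -0.18 to 0.13 on the log2 scale. Prmt8 had 0 counts in every library, where 0 counts allow up to 0.180 to 0.194 CPM.

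Lysine acetyltransferases summed to 411 and 412 CPM with PTC and 407 and 429 CPM in Control, with 5 of 8 negative, none past the threshold and a median of -0.055, which turned to 0.033 without Control 2. Kat2a, the catalytic subunit gene of the SAGA coactivator, had 79 and 79.3 CPM with PTC against 70.8 and 73.3 CPM in Control (log2 fold change 0.13, edgeR adjusted p = 0.507). Kat8, which acetylates histone H4 in the MSL and NSL complexes, had 30 and 32.8 CPM with PTC against 37.4 and 33.4 CPM in Control (-0.17, adjusted p = 0.536). Kat7, the enzyme of the HBO complexes, had 122 and 118 CPM with PTC against 129 and 127 CPM in Control (-0.094). The groups did not overlap for any of these genes. Over the whole class, both PTC libraries lay below both Control libraries for 25% of the genes and above both for 12.5%. Among all genes tested those shares were 22.2% and 21.3%. Kat6b had the fold change of greatest size in the class, -0.21, at 9.89 and 11.7 CPM with PTC against 10.3 and 14.6 CPM in Control, and its fold change was 0.063 once Control 2 was left out.

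None of the DNA methyltransferase or TET genes passed the edgeR test or had an unadjusted p under 0.05. Dnmt1, which copies methylation onto newly replicated DNA, had 454 and 476 CPM with PTC against 494 and 509 CPM in Control (log2 fold change -0.11, edgeR adjusted p = 0.579). Dnmt3a and Dnmt3b place new methylation. Dnmt3a had 75.9 and 72.5 CPM with PTC against 74 and 78.9 CPM in Control (-0.044), and Dnmt3b 15.6 and 15.3 CPM with PTC against 16.4 and 19.1 CPM in Control (-0.20, adjusted p = 0.579). Tet3 had 114 and 110 CPM with PTC against 106 and 124 CPM in Control (-0.04), and Tet2 16.9 and 15.9 CPM with PTC against 19 and 16.6 CPM in Control (-0.12). Tet1 had the largest positive fold change of all members, 0.51, on few reads: 65 and 42 counts with PTC against 38 and 37 counts in Control (± 0.31, adjusted p = 0.513). Dnmt3l, a cofactor without catalytic activity, and Dnmt3c were not tested, with at most 13 and 2 counts in a library.

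Levels per kilobase of gene length ordered the members within each class over the mean of both groups. Some neighbours in that order stood in opposite orders in the PTC and Control means, among them the leading pairs Hdac1 and Hdac7, Kdm4a and Kdm5c, and Kat7 and Kat2a. Dnmt1, at 63 CPM per kilobase with PTC and 68 in Control, made up 89.2% of the summed level of its class, and Dnmt3a and then Dnmt3b followed at separate ranges. Tet3 made up 85% of the TET level, with Tet2 and then Tet1 below it, each range apart from the next. Hdac1, at 72.3 with PTC and 63.8 in Control, and Hdac7, at 62.4 with PTC and 67.6 in Control, led the deacetylases with overlapping ranges over the 4 libraries. Hdac8 was ninth of 11, at 2.64 with PTC and 3.96 in Control. Ehmt2 led the lysine methyltransferases at 56 with PTC and 62.1 in Control, apart from the next, Suv39h1, at 18.2 with PTC and 19.4 in Control. Kdm4a led the demethylases at 19.6 with PTC and 24 in Control, and its range overlapped that of Kdm5c, at 20.4 with PTC and 21.8 in Control. Kat7 led the acetyltransferases at 21.7 with PTC and 23.1 in Control, not separated from Kat2a at 22.7 with PTC and 20.7 in Control, nor Kat2a from Kat5. Prmt1, at 55.7 with PTC and 53.6 in Control, lay above Prmt5, at 39.6 with PTC and 40.1 in Control, with separate ranges. Sirt7 and Sirt2 were not separated, Sirt6 came below them at 12.7 with PTC and 16.4 in Control, and Sirt5 was last at 0.828 with PTC and 1.3 in Control.

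**Figure D4:**
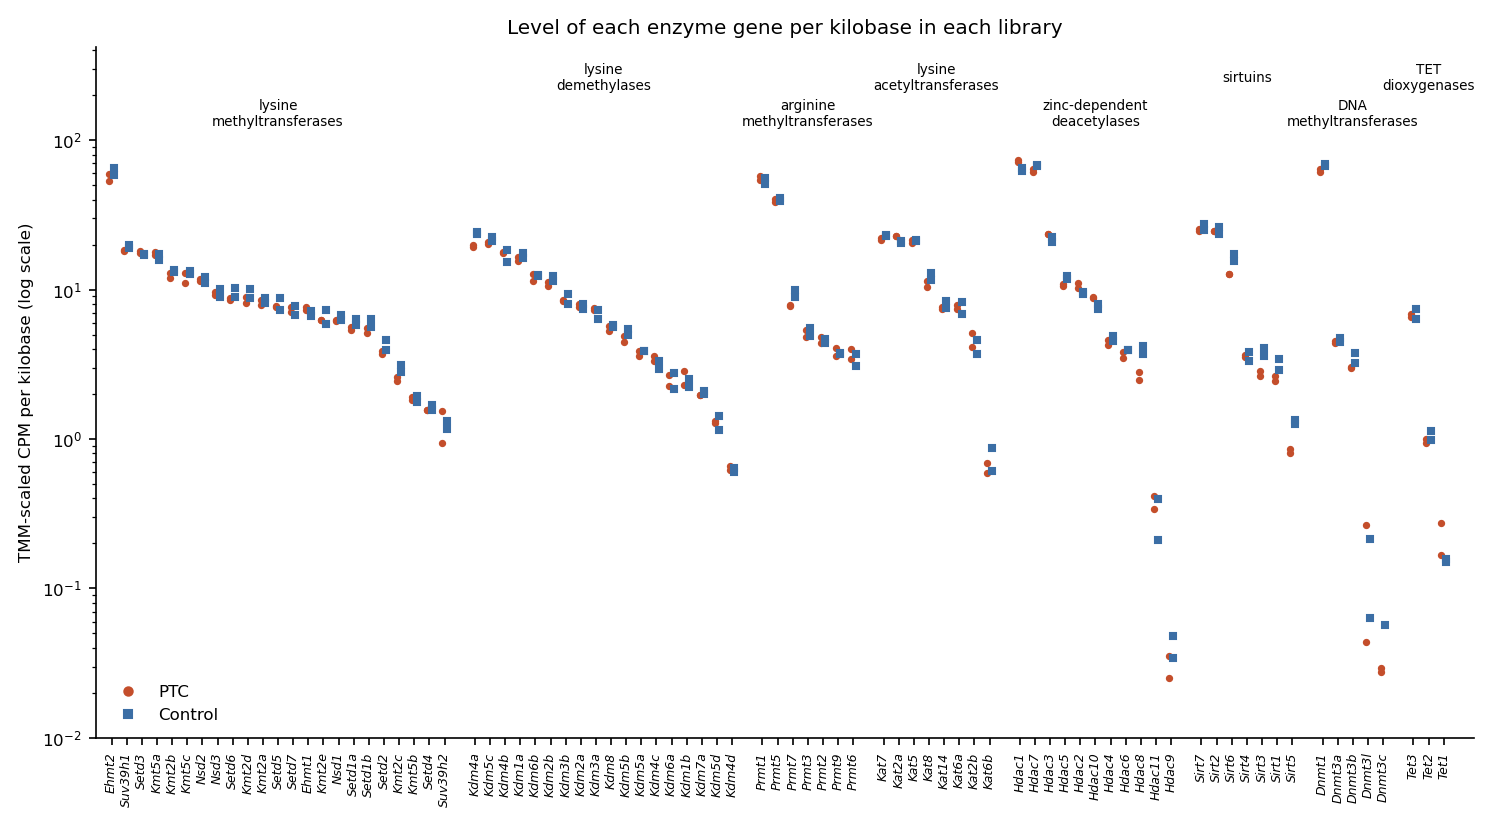
TMM-scaled CPM per kilobase of deposited gene length (log axis) in each library for the members with counts, by class from highest to lowest; circles are PTC and squares Control libraries, and values of 0 are not drawn. Dnmt1, Hdac1, Hdac7, Ehmt2 and Prmt1 lie between 51.2 and 73.2, and Sirt5 between 0.801 and 1.34.

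Genes that work with these enzymes were counted by list. Of 29 other writers and erasers tested whose symbols the rule misses, 0 passed the edgeR test (3 at an unadjusted p under 0.05, of 29), with 15 negative and a median of -0.0038. Ezh2, the PRC2 methyltransferase, had 99 and 105 CPM with PTC against 91.9 and 108 CPM in Control (log2 fold change 0.025), and the Polycomb gene Bmi1 30.8 and 27.6 CPM with PTC against 25.4 and 31.7 CPM in Control (0.031). Cdkn2a, a classical Polycomb target, had 2.21 and 1.96 CPM with PTC against 2.24 and 1.26 CPM in Control (0.26, adjusted p = 0.829). Of 21 partners of the methyltransferases 0 passed (0 unadjusted), of 29 partners of the deacetylases 0 (3 unadjusted), of 25 partners of the acetyltransferases 0 (4 unadjusted) and of 11 readers and repair factors of DNA methylation 0 (2 unadjusted). Over all genes tested, 1.35% were called and 12.9% had an unadjusted p under 0.05. The medians of these 4 lists were 0.0053, -0.046, -0.054 and 0.013. DESeq2 and limma-voom called 0 genes in these 5 lists too. Trrap, a scaffold of acetyltransferase complexes, passed lower without a filter and without Control 1, and the histone chaperone gene Rbbp7 passed higher without Control 2.

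Of 21 enzymes that make or clear the co-substrates, 1 rose and none fell by edgeR (4.76%, against 1.35% of all genes called), with a list median of 0.015. At an unadjusted p under 0.05 there were 6 of 21 (28.6%, 3 higher and 3 lower), against 12.9% of all genes. Mat2a, which makes S-adenosylmethionine, the methyl donor of all the methyltransferases described here, had 146 and 126 CPM with PTC, against 85.2 and 102 CPM in Control. It rose 1.45-fold, or by 0.54 ± 0.092 in log2 (edgeR adjusted p = 0.00513), and both PTC libraries lay above both Control libraries. The rise ran from 0.43 to 0.68 over the alternative settings, and the call was lost without PTC 1 (adjusted p = 0.0668). Idh1, which makes 2-oxoglutarate, passed higher without Control 2 alone.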

How the data were processed

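RNA-seq read counts of 4 libraries of mouse primary T cells (2 PTC, 2 Control, 12 h) were used as deposited. Per the submitters' processing notes the tools were featureCounts 1.5.0-p3, HISAT2 2.0.5 and CASAVA 1.8. The sources used here do not give the build, the strand setting or how multiply aligned reads were handled. The deposited log2 fold change column equalled, within 1e-06, the log2 ratio of group mean counts plus 1 for all 54532 genes and was not used further. Gene length is the deposited value in bases. The table holds 2 count columns that match no sample, which were left unused. Of the gene IDs, 54495 were in GENCODE M21 (GRCm38), 98.1% at the same coordinates, and 81 of the 83 members.

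Genes were filtered with filterByExpr (13884 kept), scaled by TMM and tested with edgeR 4.0.16 in R 4.3.3 (glmQLFit, glmQLFTest) on the group alone, with Benjamini-Hochberg adjustment over all genes tested and a threshold of 0.05. Standard errors are the fold change over the root of the F statistic. The fit was tested on simulated data. DESeq2 1.42.0 and limma 3.58.1 (voom), other scalings and filters, a replicate block and leaving out each library were alternatives. Samples were grouped by the treatment label.

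Members, lists and named genes were chosen with earlier results of these data known. Values are given for members with an unadjusted p under 0.05, the highest level per kilobase and the largest fold change of each class, a list of well-studied members, called genes of the partner lists, and Ezh2, Bmi1 and Cdkn2a. The calls of 1 gene of the partner lists under alternative settings are not reported here. Other members with values (among them Hdac2, Hdac3, Hdac4, Hdac10, Sirt2 and Sirt4) were chosen after their values were seen. Intervals for counts of 0 use 3 counts and cover counting error only. Promoter windows are RefSeq's, matched by symbol for 67 of 83 members.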

Additional observations from a re-analysis of the deposited data

How the results depend on the processing

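The count of enzyme genes called was 1. It was 0 by RLE scaling, 0 by DESeq2 (with no adjusted p given for 3 members) and 0 by limma-voom. It was 4 of 79 with library totals alone, where 1.99% of all genes were called. It was 4 of 82 without a filter on low counts, where 1.88% of all genes were called. The 4 were Hdac8, Kdm4a, Sirt3 and Sirt6 in both, all lower with PTC, and there the share of members called was above that of all genes. Leaving out a library gave 0 to 4. Among all genes tested, 188 were called, 432 without a filter on low counts and 76 to 422 with a library left out (422 without Control 1, 337 without Control 2, 76 without PTC 1). With the replicate block 1 member (Hdac8) and 237 genes were called. Same-numbered libraries did not deviate together (correlation across genes -0.047). With so few libraries this value cannot tell whether the numbers pair them, so the block shows the effect of a shared number only.

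Of 502 alternative values for 42 named genes, 460 kept direction and side of the threshold, 9 newly passed it, 7 lost it and 26 turned sign, each of a gene that was not called. With library totals alone Bmi1 stood at -0.012, Ezh2 at -0.018 and Sirt4 at -0.035, and with upper-quartile scaling Nsd2 at 0.012 and Sirt2 at 0.0089. With a library left out, the range and the libraries whose loss turned the sign were as follows. Bmi1 ran from -0.11 (without Control 1; -0.047 without PTC 1) to 0.21, Ezh2 from -0.08 (without Control 1; -0.014 without PTC 2) to 0.15 and Cdkn2a from -0.10 (without Control 2) to 0.74. Nsd2 ran from -0.062 to 0.072 (without Control 2; 0.022 without PTC 1), Kmt2a from -0.10 to 0.011 (without Control 2; 0.0075 without PTC 2), Kdm6b from -0.11 to 0.027 (without PTC 1) and Kat6b from -0.43 to 0.063 (without Control 2). Prmt1 ran from -0.0028 (without Control 2) to 0.13 and Prmt5 from -0.05 to 0.011 (without Control 1; 0.0099 without PTC 1). Dnmt3a ran from -0.081 to 0.0076 and Tet3 from -0.14 to 0.079 (both without Control 2). Sirt2 ran from -0.081 to 0.085 (without Control 1; 0.0047 without PTC 1), Sirt4 from -0.09 (without Control 2; -0.019 without PTC 1) to 0.12 and Sirt7 from -0.14 to 0.00047 (without Control 1). The cause was not tested. Of the 79 members tested, 45 kept their sign in every setting, 32 negative and 13 positive.

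With 2 libraries a group, and 1 in a group once a library is left out, the spread of the lone library is assumed to be that of the other group. Low counts, as for Tet1 with 37 to 65 a library, leave wide intervals (-0.13 to 1.16 for Tet1).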
